A study of Arabidopsis thaliana with 4 samples.

Results

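The 10 genes described here decide when an Arabidopsis thaliana plant flowers. They are SOC1, FT, CO, FLC, SVP, AGL24, FUL, TSF, FD and LFY, 10 of 27444 protein-coding genes on the 5 nuclear chromosomes. They were given as a list of locus identifiers, and each was examined for phytochrome A (phyA) on chromatin by collecting every peak that overlapped the gene or the 1000 bp outside either end by at least 1 bp. That stretch is called the gene window. Chromatin immunoprecipitation sequencing (ChIP-seq) was made from etiolated seedlings, 4 days old, of the phyA201 mutant with a phyA-GFP fusion driven by the PHYA promoter, after 3 h of far-red light. All 4 samples, 3 precipitated with an anti-GFP antibody and 1 input, carry this transgene and received the same light. The 3 precipitated samples are labelled as biologically distinct, and each has its own peak list. The input was not analysed here, and neither were seedlings without the fusion or kept in darkness, so the peak lists are described as they stand.

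Phytochrome A is the photoreceptor through which seedlings sense far-red light, and it acts in the nucleus after light has converted it. Flowering is decided by a cascade of regulators. CO, a zinc finger protein of the photoperiod pathway, activates FT, whose product moves from leaf to shoot apex and works there with the bZIP factor FD. The MADS-box proteins FLC and SVP repress FT and SOC1, and SOC1 with AGL24 activates LFY, which gives the young meristem its floral identity. Phytochrome A is known in this pathway for promoting flowering under far-red-rich light, in part by stabilising the CO protein.

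The lists of replicates 1, 2 and 3 held 7084, 7534 and 6037 peaks with 11110782, 7702516 and 4951883 reads inside them. The total reads of each library are unknown. Reads inside peaks do not measure depth, because the lists also differ in number and length of peaks. The median peak length was 1477, 1168 and 1117 bp. Fold enrichment is the authors' deposited value for each peak, a linear ratio read as ChIP signal over background at the summit. Its median was 4.38, 3.85 and 3.58 in the 3 lists, and no list held a value below 2.95. Because each list has its own scale, every value is also given as a percentile, the share of peaks in the same list with that fold enrichment or less.

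Peaks were found in all 3 replicates at 3 of the 10 genes, SOC1, SVP and LFY. By the same rule 18.8% of all protein-coding genes had a peak in all 3 lists. FD had a peak in 2 lists, FLC and FUL had one in replicate 3 only, and FT, CO, AGL24 and TSF had none in any list. Among all protein-coding genes, 13.3% had a peak in exactly 2 lists, 16% in exactly 1 and 51.9% in none. By replicate, 4, 4 and 5 of the 10 genes had a peak, against 35.3, 35.7 and 28.1% of all genes. With only 10 genes a single gene moves such a share by 10 percentage points, so the counts are not read as a property of the group, and no test was made of them. The 10 genes are 2081 to 6067 bp long, with a median of 3067 bp against 2078 bp for all protein-coding genes, and a longer gene has a wider window. Among all genes of at least 2000 bp, 22.3% had a peak in all 3 lists. When only peaks with a deposited false discovery rate of at most 1% were kept, SOC1 alone of the 10 had a peak in all 3 lists, against 4.78% of all genes.

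**Figure D1:**
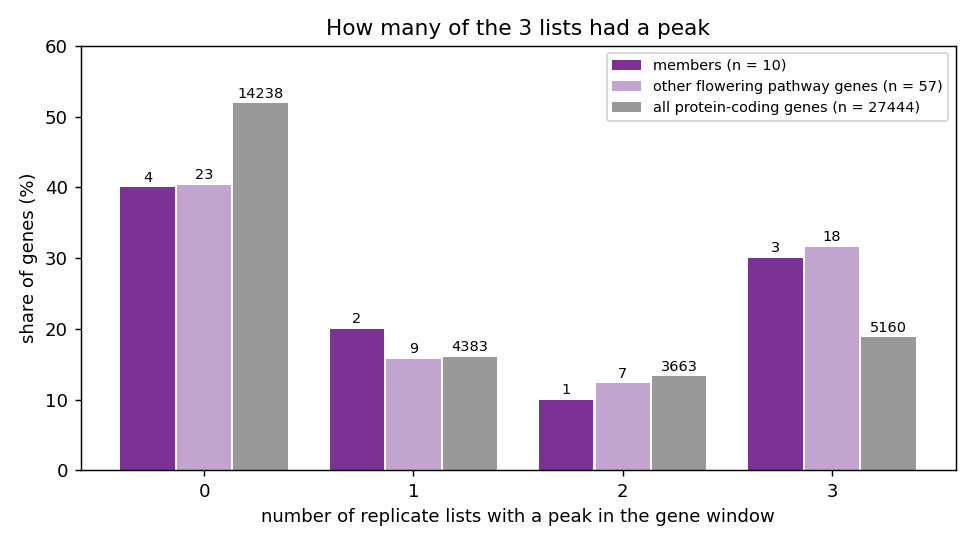
Share of genes (y axis, %) by the number of replicate lists with a peak in the gene window (x axis), for the 10 flowering time genes, 57 other flowering pathway genes and all 27444 protein-coding genes; the figure over each bar is the number of genes. Of the 10 genes, 4 had a peak in no list and 3 in all 3 lists.

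SOC1, the MADS-box integrator on which the photoperiod, vernalization and gibberellin routes converge, had the most peaks of the 10 genes, 2 in every list. Such a pattern of 2 or more peaks in each list was found at 1.51% of all protein-coding genes. SOC1 (AT2G45660, named AGL20 in the gene table) lies on chromosome 2 from 18807505 to 18811125 (TAIR10), and 1 peak lay at each of its ends. The gene table gives no strand, so the ends are called lower and upper by coordinate and which of them is the transcription start is not stated here. Peaks at the lower end ran from 18806347 to 18808386 in replicate 1, from 18805998 to 18807507 in replicate 2 and from 18806310 to 18808238 in replicate 3. Their summits were at 18807056, 18807101 and 18807112, a span of 56 bp, and all lay outside the gene, by 449, 404 and 393 bp.

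At this lower end the fold enrichment was 7.35, 5.10 and 4.22 in replicates 1, 2 and 3, with a mean of 5.56 ± 1.61 (SD, n = 3). The values stood at percentiles 98.5, 89.2 and 80.3 of their lists, so the peak ranked high in each list. The peaks held 2286, 1398 and 1319 reads, or 1121, 926 and 684 reads per kb of peak, against list medians of 865, 710 and 600. All 3 deposited false discovery rates were low, at 0.74, 0.32 and 0.14%. Among the 5160 protein-coding genes with a peak in all 3 lists, 94.0% had a mean fold enrichment at or below that of SOC1. Those 5160 genes rest on 4347 different sets of peaks, since neighbouring genes share peaks.

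The lower peak has its summits in a gap of 918 bp between SOC1 and AGL6, another MADS-box gene, which ends at 18806586. Its summits were 470, 515 and 526 bp from AGL6, so SOC1 was the nearer gene in each list, with the smallest margin in replicate 1. The peaks overlapped the AGL6 gene by 240, 589 and 277 bp and SOC1 by 882, 3 and 734 bp. The peak of replicate 2 therefore barely entered SOC1, and the position does not tie the signal to SOC1 rather than AGL6.

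The peak at the upper end of SOC1 was weaker. Its fold enrichment was 4.69, 3.20 and 3.55, with a mean of 3.81 ± 0.78 (SD, n = 3), and it stood at percentiles 62.2, 14.0 and 48.2. In each list it was below the peak at the lower end. Summits at 18811271, 18811129 and 18811060 lay within 146 bp of the gene end, outside it in replicates 1 and 2 and inside it in replicate 3. Farther out, a further peak had its summits at 18814755, 18814476 and 18814871, in or beside AT2G45670. There the fold enrichment of 8.21, 5.76 and 3.78 was above that of the lower SOC1 peak in replicates 1 and 2 and below it in replicate 3.

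**Figure D2:**
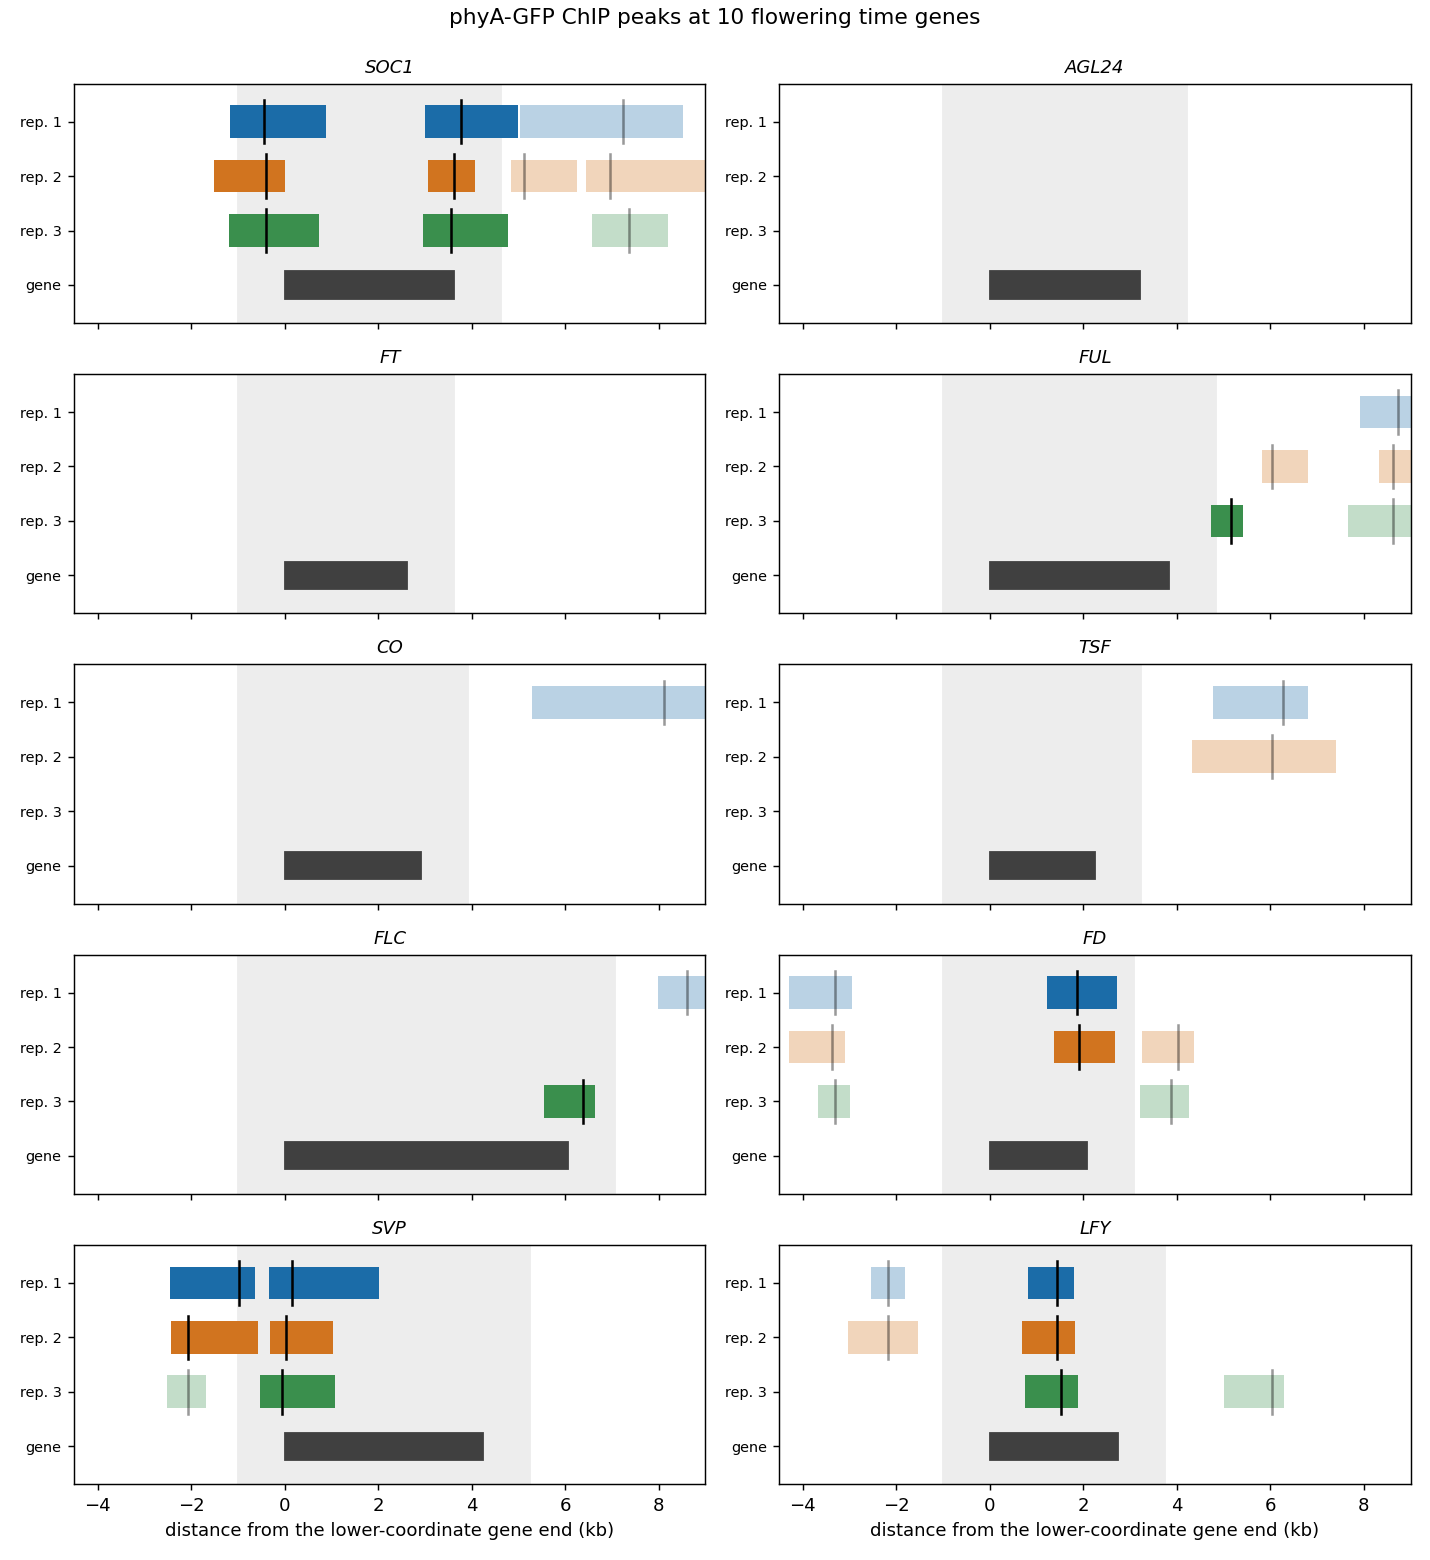
Maps of the 10 loci with the distance from the lower-coordinate gene end in kb on the x axis; the dark bar is the gene, the grey band the gene window, coloured bars are the peaks of each replicate (rows) and black ticks their summits, with peaks outside the window drawn pale. SOC1 shows a peak at each end in every replicate, SVP a peak over its lower end and LFY a peak in the middle of the gene, while FT, CO, AGL24 and TSF have none in the window.

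LFY, the meristem identity regulator that stands at the end of this cascade, carried 1 peak in each list, inside the gene. LFY (AT5G61850) lies on chromosome 5 from 24844248 to 24846989. The peaks ran from 24845064 to 24846041, from 24844943 to 24846066 and from 24845003 to 24846126, and no part of any of them lay outside the gene. They covered 35.7, 41.0 and 41.0% of its length. Summits at 24845681, 24845692 and 24845764 were 1433, 1444 and 1516 bp from the lower end and 1308, 1297 and 1225 bp from the upper end. LFY thus differed in position from SOC1 and SVP, whose strongest peaks lay at gene ends.

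The fold enrichment at LFY was 4.61, 4.65 and 4.29 (4.52 ± 0.20, SD, n = 3), the smallest spread of the 3 genes. Within the lists these values stood at percentiles 59.1, 80.2 and 82.4. The peaks held 794, 862 and 776 reads, or 812, 767 and 690 reads per kb. Replicate 1 was below the median of its list in reads per kb, and replicates 2 and 3 were above theirs. The deposited false discovery rate was 3.97% in replicate 1, against 0.78 and 0.22% in the others, and the value of replicate 1 was the highest of any peak counted for the 10 genes. The 3 summits fell within 83 bp. Among the 5160 genes with a peak in all 3 lists the closest set of summits, 1 per list, spanned a median of 149 bp.

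SVP, a MADS-box repressor of flowering that acts with FLC, had a peak over its lower end in each list. SVP (AT2G22540) lies on chromosome 2 from 9579647 to 9583901. Its summits were at 9579807, 9579686 and 9579592, which is 160 and 39 bp inside the gene in replicates 1 and 2 and 55 bp outside it in replicate 3. They spanned 215 bp. The peaks shared the stretch from 9579332 to 9580675 and covered 47.4, 24.2 and 25.2% of the gene.

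At this end of SVP the fold enrichment was 4.23, 4.95 and 3.78, with a mean of 4.32 ± 0.59 (SD, n = 3). The percentiles were 44.2, 86.7 and 62.0, so replicate 1 was below the middle of its list and the others above. The peaks held 1839, 1004 and 994 reads, or 783, 747 and 620 reads per kb. Among the 5160 genes with a peak in all 3 lists, 48.8% had a mean fold enrichment at or below that of SVP, which puts SVP near the middle of them.

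A second peak reached the SVP window from the side of AT2G22530 in replicates 1 and 2, with fold enrichments of 4.23 and 4.56. The summits were 1086 bp apart, at 9578666 in replicate 1, between the genes, and at 9577580 in replicate 2, inside AT2G22530. In replicate 3 a peak with a fold enrichment of 3.59 had its summit at 9577582, 2 bp from that of replicate 2. That peak ended 1674 bp before SVP and so lay outside the window. The summits of replicates 2 and 3 were thus in AT2G22530, while that of replicate 1 was 981 bp from SVP and 1050 bp from AT2G22530.

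The strongest peaks of SOC1, LFY and SVP did not keep one order. By mean fold enrichment SOC1 was highest and SVP lowest, but the difference between SOC1 and LFY was smaller than the SD of SOC1. Within the lists, SOC1 was above LFY in replicates 1 and 2 and below it in replicate 3, at 4.22 against 4.29. LFY was above SVP in replicates 1 and 3 and below it in replicate 2, at 4.65 against 4.95. SOC1 was above SVP in each list.

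**Figure D3:**
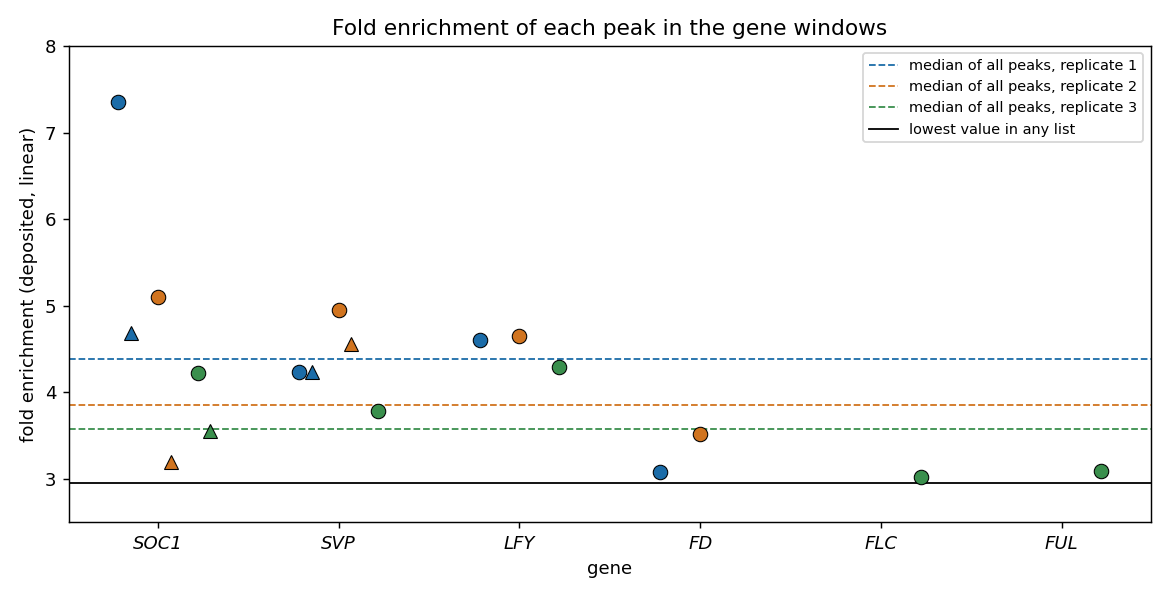
Deposited fold enrichment (y axis, linear ratio) of each peak in the windows of the 6 genes that had any, with replicates 1, 2 and 3 from left to right in blue, orange and green; triangles are the upper SOC1 peak and the SVP peak on the side of AT2G22530, dashed lines the median of each list and the black line the lowest value in any list. The lower SOC1 peak reaches 7.35 in replicate 1, the LFY values lie between 4.29 and 4.65, and the FLC and FUL peaks are close to the lowest value of 2.95.

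FD, the bZIP partner of FT at the shoot apex, had peaks in replicates 1 and 2. FD (AT4G35900) lies on chromosome 4 from 17004382 to 17006462. The summits, at 17006242 and 17006294, were inside the gene, 220 and 168 bp from its upper end. The fold enrichment was 3.08 and 3.52, at percentiles 2.57 and 32.5, so both peaks were in the lower part of their lists. The peaks also overlapped the next gene, AT4G35905, by 470 and 423 bp. Replicate 3 had no peak at that place. Its nearest peak began 1135 bp beyond FD, with the summit 2 bp outside AT4G35905 and a fold enrichment of 3.78.

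FLC, the MADS-box repressor that vernalization silences, had a peak in replicate 3 alone. FLC (AT5G10140) lies on chromosome 5 from 3173382 to 3179448, and the peak from 3178937 to 3180033 covered 8.44% of the gene. Its summit at 3179774 lay 326 bp outside the upper end and 174 bp outside AT5G01675, a long noncoding RNA gene that spans FLC in the gene table. The fold enrichment of 3.02 stood at percentile 6.96, close to the lowest value listed. The nearest peaks of replicates 1 and 2 began 1920 and 3265 bp from FLC, and both had their summits inside AT5G10150.

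FUL, a MADS-box gene related to AP1 that promotes flowering and fruit growth, was counted in replicate 3 on an overlap of 109 bp with its window. FUL (AT5G60910, named AGL8 in the gene table) lies on chromosome 5 from 24502434 to 24506269. The peak from 24507161 to 24507851 had a fold enrichment of 3.09, at percentile 12.6. Its summit lay 1329 bp beyond the upper end, outside the window, so FUL is not counted when the summit itself must be in the window. In replicate 2 the nearest peak began 1981 bp from the gene, on the same side.

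The florigen gene FT and its close relative TSF had no peak in any list. From FT (AT1G65480, chromosome 1, 24331373 to 24333999) the nearest peak was 6756, 15513 and 62890 bp away in replicates 1, 2 and 3. From TSF (AT4G20370, chromosome 4, 11000771 to 11003010) it was 2539, 2083 and 7644 bp away. The TSF distances in replicates 1 and 2 were to peaks of low rank, with fold enrichments of 2.98 and 3.09 and summits in AT4G20390 and LSD1.

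CO, the activator of FT, and AGL24, the partner of SOC1, also had none. CO (AT5G15840, chromosome 5, 5170162 to 5173085) had its nearest peak 2380, 7537 and 7885 bp away. That of replicate 1 had its summit in AT5G15853 and those of replicates 2 and 3 in PCME. AGL24 (AT4G24540, chromosome 4, 12670897 to 12674106) had its nearest peak at nearly the same distance in the 3 lists, 11692, 11779 and 11751 bp away. The lack of a listed peak does not show that phyA was absent from these 4 genes, because the lists hold only peaks of at least 2.95-fold enrichment and the depth is unknown.

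Of 57 other genes of the flowering pathway, 18 had a peak in all 3 lists, 7 in 2, 9 in 1 and 23 in none. The 18 genes are 31.6% of the 57, against 18.8% of all protein-coding genes. They include MAF2 to MAF5, neighbours that shared peaks. Among genes of at least 2000 bp, 15 of 47 pathway genes had a peak in all 3 lists, against 22.3% of all such genes. With the gene body only as the window, 8 of the 57 (14%) had a peak in all 3 lists, close to the 13.4% of all genes. By the main rule the photoperiod group held 7 of its 14 genes with a peak in all 3 lists, against 18.8% of all genes. Within this group the percentiles of fold enrichment, as means over the 3 lists, were 94.0 at GI, a clock-controlled activator of CO, 90.4 at AT1G69570, 88.0 at SPA1, whose product acts with COP1 in breaking down CO, 77.4 at TEM2 and 75.1 at TEM1, both FT repressors, 65.1 at the blue light receptor gene CRY2 and 41.1 at COL2, a relative of CO. The closest set of summits, 1 per list, spanned 818 bp at COL2 and 626 bp at TEM1, and 24 to 232 bp at the others. CO and FT themselves had no peak in any list.

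MAF1 to MAF5, MADS-box genes close to FLC in sequence, each had a peak in all 3 lists, as had 18.8% of all protein-coding genes. FLC had one in replicate 3 only. The mean percentiles of their strongest peaks were 68.5 at MAF3, 64.9 at MAF1, 63.1 at MAF4, 55.7 at MAF5 and 48.6 at MAF2. For MAF3 and MAF4 these means join peaks at different places. The MAF4 summits used were at 25996983, 25991576 and 25997113 in replicates 1, 2 and 3, and those of MAF3 at 25991630, 25991576 and 25986629. At MAF1 the closest set of summits, 1 per list, spanned 1058 bp. MAF2 to MAF5 lie side by side on chromosome 5 from 25982254 to 26002619 and shared their peaks, of which there were 3, 4 and 2 in replicates 1, 2 and 3. Every summit of these peaks lay outside the 4 genes. The genes are similar copies, so alignment could split reads among them, and how this bears on peaks beside the genes was not tested. Of the SOC1 relatives AGL14, AGL19, AGL42, AGL71 and AGL72, only AGL42 had any peak, in replicates 1 and 2. For comparison, 51.9% of all protein-coding genes had a peak in no list and 13.3% in exactly 2.

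Among the 16 regulators of FLC, 3 had a peak in all 3 lists, EMF1 (mean percentile 80.1), FRI and LD, a share equal to the 18.8% of all genes. In this group 12 of the 16 genes had no peak in any list, against 51.9% of all genes. The group is small, so this count is not read as a property of it. The age pathway had 3 of 10, against 18.8% of all genes, with mean percentiles of 79.6 at SNZ, 63.4 at SPL5 and 48.3 at SPL15. Their closest sets of summits, 1 per list, spanned 164, 868 and 1685 bp. None of the 5 genes of the FT family and the FD relative (TFL1, ATC, MFT, BFT and FDP) had a peak in any list, beside the 51.9% of all genes without one. The meristem identity gene AP1 had a peak in replicates 1 and 3, and CAL had none. Of all genes, 13.3% had a peak in exactly 2 lists and 51.9% in none.

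**Figure D4:**
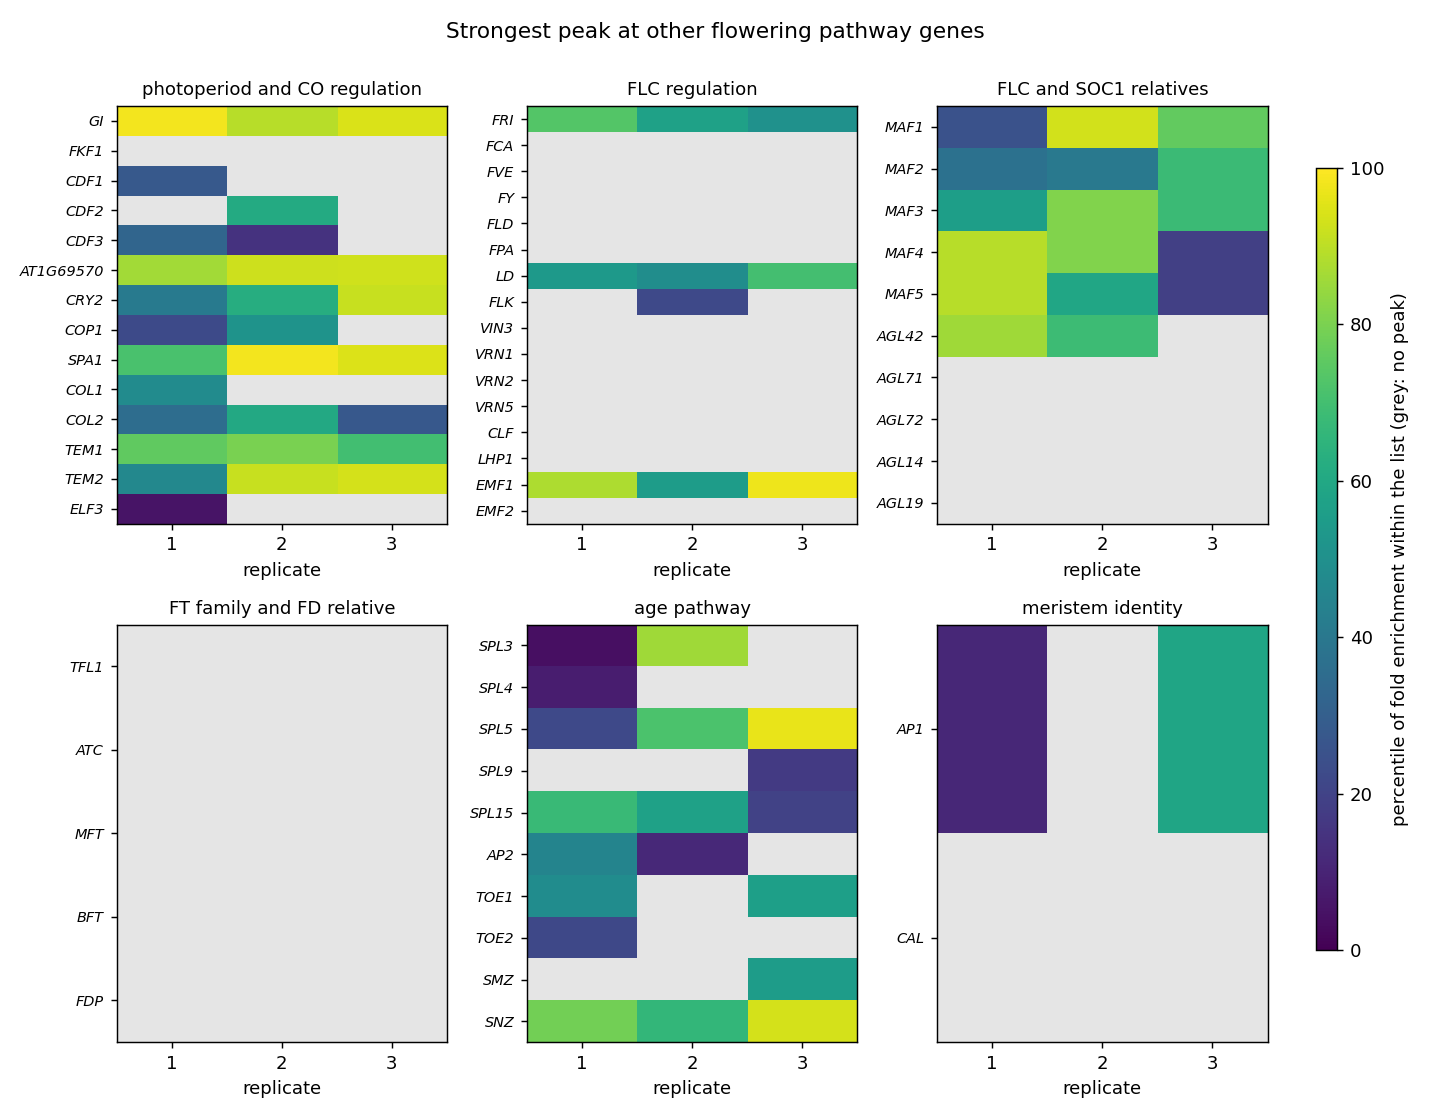
Percentile of fold enrichment within its own list (colour) of the strongest peak at 57 other flowering pathway genes (rows, by group) in replicates 1 to 3 (columns), with grey where a list had no peak. The FT family and FD relative are grey throughout, MAF1 to MAF5 are coloured in every replicate, and GI has the highest mean percentile, 94.0.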

How the data were processed

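The 3 peak lists of the phyA-GFP samples were analysed. Reads were aligned with Bowtie and the build was TAIR10, per the submitters' processing notes. Which peak caller and filters were used, and if input reads served as control, is not given in the sources used here. The lists have no header, so the 9 columns were read from their values and order, which is that of a MACS table. Counts of reads in each peak, as deposited by the authors, are whole and not normalized. Fold enrichment is a linear ratio in the deposited lists, the deposited false discovery rate is in percent, and the deposited score was not used. Starts were read as 1-based, and the summit as start plus the offset.

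Gene positions came from the NCBI table of assembly TAIR10.1, which is of Columbia and has TAIR10 coordinates on the nuclear chromosomes. The labels do not name the seedlings' accession. The table has no strand and no sequence was given, so no promoter was told apart, no sequence is printed and the planned motif search was not run. Of 67 listed genes, 66 matched the table by identifier and symbol, and the other (AT1G69570) by identifier only. The overlap step was tested on simulated data with 200 planted peaks and was wrong at 0 of 27444 genes. Python 3.11.15, pandas 2.3.3 and numpy 2.4.6 were used.

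The 10 genes and the pathway list were chosen with earlier results of these data known. All 10 are described. Pathway genes with a peak in all 3 lists were named up to 12, by mean percentile. Neighbours were named where a summit was nearer to them, and AGL6, AT4G35905, AT2G45670, AT5G01675, the other genes holding nearby summits and the remaining pathway genes were chosen after their values were seen. Nothing was tested, because the lists form 1 group. Alternatives were stricter peaks, other windows and overlaps, the nearest gene only, replicates that must overlap each other and leaving out each replicate.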

Additional observations from a re-analysis of the deposited data

How the results depend on the processing

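SOC1 had a peak in every list used under each alternative. The number of the 10 genes with a peak in all lists, 3, was 1 with a false discovery rate of at most 1% (4.78% of all genes in the same setting), 2 (SOC1 and LFY) with peaks at or above the median fold enrichment of each list (7.09%), 4 with windows of 2000 bp (24.3%), where FD counts through another place in replicate 3, and 3 to 4 when each replicate was left out in turn (21.4 to 26.8%), FD being added without replicate 3. It was 3 in the remaining settings, where the share of all genes varied. That share was 16.2% with windows of 500 bp, 13.4% with the gene body only and 17.7% with overlaps of at least 200 bp. With the summit in the window the share was 14.3%, with the nearest gene only 9.67% and with replicates that overlap each other 17.4%. The 1% limit left 1, 3 and 3 of the 10 genes in replicates 1, 2 and 3, against 4, 4 and 5 by the main rule. It kept only 1173 of 7084, 3621 of 7534 and 2906 of 6037 peaks. The share of all genes per replicate under that limit was not computed, so these counts are not read as a property of the 10 genes. Of the 57 pathway genes, the 18 (31.6%, against 18.8% of all genes) became 4 with that limit (7.02 against 4.78%), 8 with peaks at or above the median (14% against 7.09%), 8 with the gene body only (against 13.4%) and 8 with the nearest gene only (against 9.67%), and 18 to 23 without 1 replicate. The fold enrichment of SOC1, SVP and LFY, averaged over these 3 genes within each list, had a mean of 4.80 ± 0.66 (SD, n = 3 lists). Each list has its own scale, which enters this SD. The mean ranged from 4.50 to 5.15 without 1 replicate. With windows of 2000 bp the LFY value was 4.72 in place of 4.52, through a peak at GUT1 in replicate 1. The depth is unknown, so a gene without a peak may be one that these libraries could not show. No paired analysis was possible because the lists form 1 group and the results come from no test.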
